A study of Mus musculus with 6 samples.

Results

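The 10 genes described here encode the erythropoietin (EPO) receptor (Epor), the kinase and transcription factors that act behind it (Jak2, Stat5a and Stat5b), the feedback inhibitors that it induces (Cish, Socs1, Socs2 and Socs3), the kinase Pim1 and the membrane aminopeptidase Lnpep. They were taken by gene symbol from the deposited gene tables, which list 17060 genes in all, and each of the 10 had reads in every culture. The RNA came from WT mouse bone marrow (BM) cells depleted of those that carry lineage markers, which leaves mostly stem and progenitor cells, and these mature toward erythroblasts in medium with EPO. The cells were kept for 48 hours with the Plek2 inhibitor NUP-17d (10 μM, 3 cultures) or with its vehicle DMSO (NC, 3 cultures), and EPO was present in both groups. All values are relative abundances, since no measure of total RNA per cell was used here. In these bulk cultures, fewer cells of a type and less RNA per cell cannot be told apart. The labels do not say whether the cultures came from separate animals, so p-values measure the spread between these cultures, which may be technical.

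EPO binds its receptor on the surface of erythroid progenitors and brings together receptor-bound JAK2 molecules, which phosphorylate the receptor and STAT5. STAT5A and STAT5B then enter the nucleus and switch on genes that keep erythroid cells alive and growing. STAT5 also switches on the genes of feedback inhibitors, CIS (Cish) and the SOCS proteins, which bind the receptor or the kinase and shut the signal down. The transcripts of these inhibitors are therefore often read as a record of recent STAT5 activity.

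RefSeq promoter windows, from 250 bases before to 50 bases after each annotated start, were found for 9 of the 10 genes on mouse genome build GRCm38.p6. They were searched on both strands for TTCNNNGAA, the palindrome that STAT factors bind, and for AGATAA, the letters that GATA factors bind. TTCNNNGAA is in 8.3% of all 32851 RefSeq windows and AGATAA is in 11.2%, and the searches do not overlap in the windows shown. The stretches below are those of the 4 genes that fell with NUP-17d, and capitals mark the matches. Epor is shown from chr9:21963577-21963676 (minus strand, the 100 bases before the start), Cish from chr9:107296649-107296678 (plus strand, 10 bases before to 20 bases after the start), Socs3 from chr11:117969467-117969566 (minus strand, starting 200 bases before the start that the window uses) and Pim1 from chr17:29490685-29490784 (plus strand, the 100 bases before the start).
Epor: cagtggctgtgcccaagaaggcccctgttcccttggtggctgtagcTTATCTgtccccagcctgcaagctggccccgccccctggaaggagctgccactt
Cish: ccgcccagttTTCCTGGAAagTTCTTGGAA
Socs3: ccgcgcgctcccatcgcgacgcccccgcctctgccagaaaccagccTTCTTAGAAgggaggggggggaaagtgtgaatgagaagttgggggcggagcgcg
Pim1: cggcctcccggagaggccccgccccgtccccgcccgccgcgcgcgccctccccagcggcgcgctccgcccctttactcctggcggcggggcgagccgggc

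Cish carries 2 TTCNNNGAA matches in a row, at bases 1 to 9 and 12 to 20 from its annotated start. A window with 2 or more such matches is found in 0.457% of all windows. Socs3 has a single TTCNNNGAA match that begins 154 bases before the start that its window uses. That start is 970 bases inside the gene's annotated span, so the match lies within the span. The windows of Stat5a and Stat5b also use starts inside their spans, as does a second window of Pim1, whereas those of Epor, Cish, Jak2, Socs1 and Lnpep and the Pim1 window shown use the first transcribed base of the span. Epor has no TTCNNNGAA match but has AGATAA, read on the opposite strand, from 54 bases before its start. Neither motif was matched in the windows of Jak2, Stat5a, Stat5b, Socs1, Pim1 or Lnpep. These matches describe letters in a short window and show no binding.

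In GRCm38.p6 the receptor gene Epor spans chr9:21958897-21963576 and Cish spans chr9:107296659-107302784. Stat5b (chr11:100780731-100859004, minus strand) and Stat5a (chr11:100859351-100885169, plus strand) lie next to each other with 346 bases between their spans. The same chromosome carries Socs3 (chr11:117966079-117970336). Jak2 lies at chr19:29251803-29313095, Socs1 at chr16:10783808-10785536, Socs2 at chr10:95383903-95417321, Pim1 at chr17:29490785-29496111 and Lnpep at chr17:17527723-17624489. In the GENCODE M21 annotation, Cish, Pim1 and Stat5a overlap genes on the opposite strand (Gm17040 and Gm17041, Gm26885, and Stat3), by 2626, 1173 and 72 bases. The sources differ on whether the library kit kept the strand, so reads of such a partner cannot be told apart from those of the gene.

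An expected count is the authors' estimate of the reads of a gene, and it can be a fraction where a read matches more than 1 gene. Its total was 20076409 to 20419018 per culture. Hemoglobin genes took 18.3% to 20.3% of the counts with DMSO and 11.8% to 13.1% with NUP-17d, so the scaling of the libraries matters. Values below are CPM, counts scaled to libraries of a common size, with that size set by TMM, a method that corrects for such a difference in composition, unless FPKM is named. A gene is said to have risen or fallen where the Benjamini-Hochberg adjusted p of edgeR's quasi-likelihood test, over all 12306 genes tested, was under 0.05. All 10 genes passed the filter on low counts, and their edgeR 95% intervals (CI) are given as log2 fold changes of NUP-17d over DMSO. With scaling by library totals alone (totals only), the median log2 fold change of all tested genes moved from 0.014 to 0.28, and values for this scaling should be read against that shift.

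Of the 10 genes, 4 fell with NUP-17d (Cish, Pim1, Socs3 and Epor), 1 rose (Stat5b) and 5 did not pass the test (Jak2, Stat5a, Socs1, Socs2 and Lnpep). Over all tested genes, 35.3% passed, of which the 18.9% that fell and the 16.4% that rose are the background for these counts. The largest change was in Cish, whose level with NUP-17d was 0.572 of that with DMSO. The median log2 fold change of the 10 genes was -0.036, against 0.014 for all tested genes. The groups did not overlap for 6 of the 10 genes, the 4 that fell and both Stat5 genes, beside 46.0% of all tested genes (22.8% higher and 23.2% lower with NUP-17d).

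Cish, Pim1, Socs3 and Epor fell under each of the 14 alternatives of the fit. The share of all tested genes that fell was 5.34% with totals only (74.1% passed in either direction), 5.68% and 5.69% with limma on FPKM at pseudocounts of 1 and 0.1, 15.3% with DESeq2, 19.4% with RLE scaling, 13.0% without a filter, 18.9% without hemoglobin genes and 19.7% with the culture number as a block. It was 16.7%, 16.6% and 16.3% without DMSO cultures 1 to 3 and 17.6%, 16.7% and 17.5% without NUP-17d cultures 1 to 3. More of the 10 genes rose under some of these fits, namely 5 with totals only, 6 with each limma fit, 2 with the block and 2 without culture 1 of either group. The matching shares of all tested genes that rose were 68.7%, 74.9% and 74.7%, 17.2%, and 13.2% without DMSO culture 1 and 14.7% without NUP-17d culture 1.

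**Figure D1:**
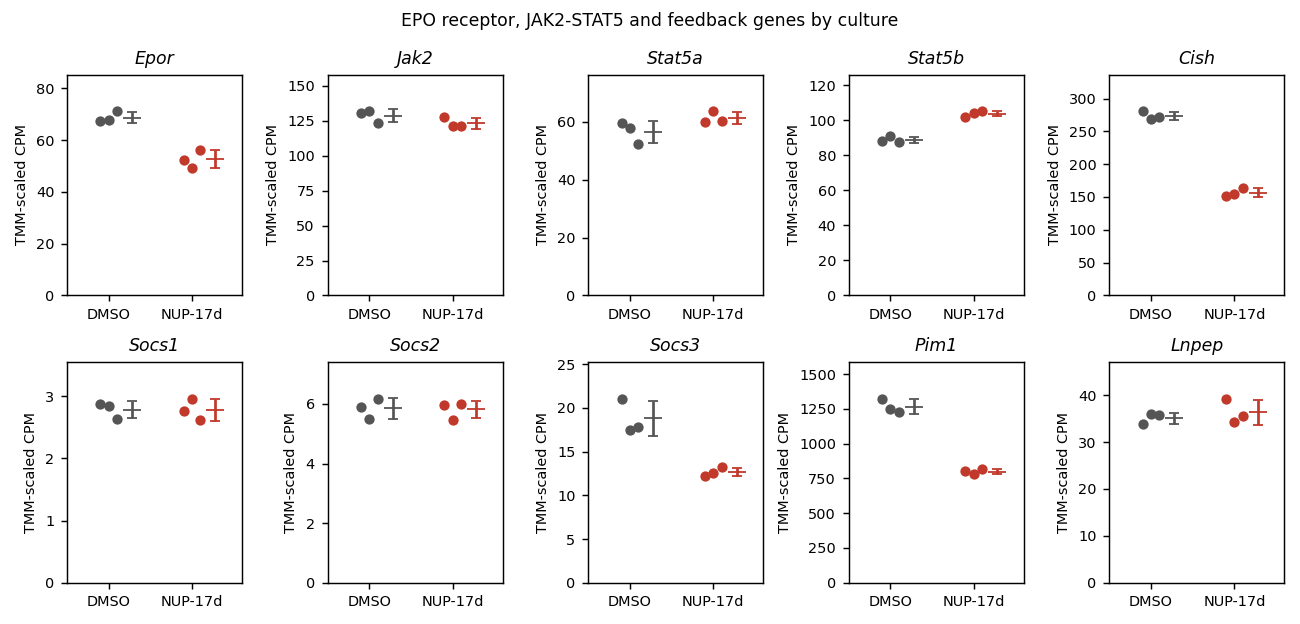
TMM-scaled CPM of each gene (vertical axes, starting at 0) in the 3 DMSO cultures (gray) and the 3 NUP-17d cultures (red), where each point is a culture and the bars beside them are the mean and SD. The NUP-17d cultures lie below all DMSO cultures for Epor, Cish, Socs3 and Pim1 and above them for Stat5a and Stat5b, and the groups overlap for the other 4 genes.

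Epor encodes the receptor that EPO needs to keep erythroid progenitors alive. It had 67.4, 67.6 and 71.1 CPM in DMSO cultures 1 to 3 and 52.5, 49.4 and 56.3 CPM in NUP-17d cultures 1 to 3. Every treated culture was below every control culture. Epor fell from 68.7 ± 2.06 to 52.7 ± 3.49 CPM (SD, n = 3 cultures each; log2 fold change -0.38, CI -0.48 to -0.29, adjusted p = 2.44e-07 from edgeR). With totals only the fold change was smaller at -0.12 (adjusted p = 0.0416 from edgeR), still below the all-gene median of 0.28.

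The fall in Epor stood beside lower levels of the erythroid markers. All 9 markers of that lineage used here (Slc4a1, Klf1, Gata1, Alas2, Epb42, Ank1, Sptb, Ahsp and Tfrc) fell, beside 18.9% of all tested genes. Their summed level was 22804 to 24613 CPM with DMSO and 14170 to 15066 CPM with NUP-17d. None of them was at 0 in any culture, and the label of the samples is erythroblast. Gata1, the erythroid master transcription factor, had a log2 fold change of -0.33, and Tfrc, the transferrin receptor, -0.53. With totals only, 7 of the 9 fell, beside 5.34% of all tested genes. Under that scaling Klf1 turned to 0.028 (adjusted p = 0.495 from edgeR) and Gata1 was at -0.067 (adjusted p = 0.0842 from edgeR). Within a culture, Epor made up 2.74, 2.96 and 3.10 reads per 1000 marker reads with DMSO and 3.51, 3.48 and 3.74 with NUP-17d. This share of the summed reads was higher in every treated culture (ratio of means 1.22, 2-sided exact permutation test p = 0.1, the smallest that 3 cultures against 3 allow). The sum is carried by Slc4a1 (12227 CPM on average with DMSO) and Alas2 (4441 CPM), and the fold change of Epor was below those of the erythroid transcription factors Gata1 (-0.33) and Klf1 (-0.24), so the higher share does not hold against each marker. The part of the lower erythroid marker level in the results given here was not tested.

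Markers of the other lineages rose and fell in smaller numbers than the 9 erythroid markers that fell, apart from those of megakaryocytes. The background for these counts is the 16.4% of all tested genes that rose and the 18.9% that fell. Of 8 neutrophil markers, 1 rose (Ngp) and 1 fell (Camp), and their summed level was 3750 to 3913 CPM with DMSO and 3813 to 4072 CPM with NUP-17d. Among 6 macrophage markers, 2 rose and 2 fell (602 to 658 against 652 to 721 CPM in sum). The megakaryocyte list had 5 of 6 markers higher (428 to 467 against 495 to 515 CPM in sum). The mast cell and basophil list had 1 of 5 higher and 2 lower (208 to 225 against 186 to 192 CPM in sum). The 4 lymphocyte markers summed to 8.12 CPM or less in every culture, and 1 of the 3 that could be tested, Cd79a, was lower. With totals only, 7 of the 8 neutrophil, 4 of the 6 macrophage and 6 of the 6 megakaryocyte markers rose. So did 2 of the 5 mast cell and basophil markers and 0 of the lymphocyte markers, and 0 fell in each list. Under that scaling 68.7% of all tested genes rose and 5.34% fell. No marker of these lists was at 0 in any culture, so the cultures also hold RNA of genes that mark other hematopoietic lineages, and its part in the results was not tested.

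Jak2 encodes the kinase bound to the EPO receptor. Its levels were 131, 132 and 123 CPM with DMSO and 128, 121 and 121 CPM with NUP-17d. The groups overlapped, and the difference did not pass the test (log2 fold change -0.061, CI -0.14 to 0.018, adjusted p = 0.227 from edgeR). The interval leaves room for a level between 0.907 and 1.01 times that with DMSO. When libraries were scaled by totals, the sign turned (0.21, adjusted p = 0.000123 from edgeR), which is below the all-gene median of 0.28 under that scaling.

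Stat5a and Stat5b encode the paired transcription factors that carry the EPO signal to the nucleus. Stat5b had 88.3, 91.1 and 87.7 CPM with DMSO and 102, 104 and 105 CPM with NUP-17d, and the treated cultures were all higher. It rose from 89.0 ± 1.78 to 104 ± 1.51 CPM (SD, n = 3 cultures each; log2 fold change 0.22, CI 0.15 to 0.30, adjusted p = 3.06e-05 from edgeR). Stat5a had 59.6, 57.7 and 52.4 CPM with DMSO and 59.7, 63.6 and 60.3 CPM with NUP-17d. The highest DMSO culture lay just under the lowest NUP-17d culture, and the difference did not pass the test (log2 fold change 0.11, CI 0.018 to 0.21, adjusted p = 0.0597 from edgeR). Stat5a passed without DMSO culture 1 (adjusted p = 0.0265 from edgeR) or without NUP-17d culture 1 (adjusted p = 0.0467 from edgeR), and with 6 of 14 alternatives in all, with an adjusted p between 4.15e-07 and 0.362.

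The paralogs are nearly identical in places, so short reads can be shared between them. Stat5a and Stat5b counts were not whole in 5 of the 6 cultures, their sum was whole in 6 of 6 (tolerance 0.01 reads), and none of the other 8 genes had a count that was not whole. The sum does not depend on how reads were shared. It was 148, 149 and 140.1 CPM with DMSO and 162, 168 and 166 CPM with NUP-17d. The treated cultures were higher by 19.5 CPM on average (146 ± 4.77 against 165 ± 2.95, SD, n = 3 each; 2-sided exact permutation test p = 0.1, the smallest possible) and by 48.4 CPM with totals only. The FPKM ratio of Stat5b to Stat5a, a comparison per length, was 1.12, 1.2 and 1.26 with DMSO and 1.30, 1.24 and 1.32 with NUP-17d. These ranges overlapped, and on the log2 scale the difference was 0.11 (2-sided exact permutation test p = 0.2, where 0.1 is the smallest that 3 cultures against 3 allow).

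**Figure D2:**
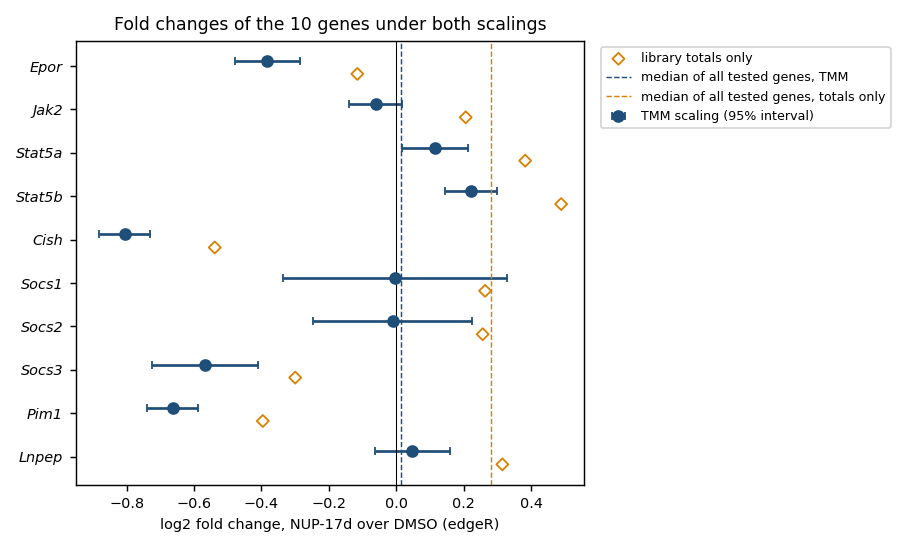
Log2 fold change of NUP-17d over DMSO for each gene (horizontal axis, edgeR) with TMM scaling (filled circles, with 95% intervals) and with library totals only (open diamonds), and the median of all tested genes under each scaling (dashed lines, 0.014 and 0.28). Epor, Cish, Socs3 and Pim1 lie to the left of 0 under both, whereas Jak2, Socs1 and Socs2 change sign with the scaling.

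Cish encodes CIS, which binds the activated EPO receptor and competes with STAT5 for it. It had 280.5, 269 and 272 CPM in the DMSO cultures and 151, 154 and 164 CPM in the NUP-17d cultures. The groups lay far apart, with no DMSO culture under 269 CPM and no NUP-17d culture over 164 CPM. Cish fell from 274 ± 6.07 to 157 ± 6.82 CPM (SD, n = 3 cultures each; log2 fold change -0.81, CI -0.88 to -0.73, adjusted p = 2.39e-15 from edgeR). With totals only it fell by 0.54 on the log2 scale. Its window holds the paired TTCNNNGAA letters. Socs3 also fell and has a single match, while Pim1 and Epor fell with none in their windows. A link between these letters and the falls was not tested.

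Socs3 encodes a feedback inhibitor that binds both the EPO receptor and JAK2. Its levels were 21.1, 17.5 and 17.8 CPM with DMSO and 12.2, 12.6 and 13.2 CPM with NUP-17d. DMSO culture 1 was the highest, and all treated cultures were below all controls. Socs3 fell from 18.8 ± 1.96 to 12.7 ± 0.50 CPM (SD, n = 3 cultures each; log2 fold change -0.57, CI -0.72 to -0.41, adjusted p = 1.23e-06 from edgeR). Without DMSO culture 1 the log2 fold change was -0.48.

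The other SOCS transcripts of the list did not pass the test. Socs1, whose protein blocks the JAK kinase domain, was the scarcest of the 10 genes, with 49 to 66 reads per culture. It had 2.87, 2.85 and 2.63 CPM with DMSO and 2.76, 2.96 and 2.61 CPM with NUP-17d, and the groups overlapped (log2 fold change -0.0033, CI -0.34 to 0.33, adjusted p = 0.989 from edgeR). Socs2, best known as a brake on growth hormone signaling, had 5.91, 5.48 and 6.18 CPM with DMSO and 5.97, 5.47 and 6.0 CPM with NUP-17d (log2 fold change -0.011, CI -0.25 to 0.23, adjusted p = 0.953 from edgeR). At these counts a change of Socs1 down to 0.793 times or up to 1.26 times the DMSO level lies within the interval. For Socs2 the bounds were 0.843 and 1.17 times. The intervals of Cish and Socs3 do not overlap those of Socs1 and Socs2, and no test of a difference between genes was run.

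Pim1 encodes a serine/threonine kinase that favors survival and growth and is switched on by STAT5. It was by far the most abundant of the 10 transcripts, with 1323, 1251 and 1224 CPM in the DMSO cultures and 800.5, 782 and 815 CPM in the NUP-17d cultures. Again no treated culture reached the controls. Pim1 fell from 1266 ± 51.4 to 799 ± 16.5 CPM (SD, n = 3 cultures each; log2 fold change -0.66, CI -0.74 to -0.59, adjusted p = 6.80e-14 from edgeR). With totals only it fell by 0.40 on the log2 scale.

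Lnpep encodes an insulin-regulated aminopeptidase that cleaves peptide hormones at the cell surface. Its levels were 33.8, 35.9 and 35.7 CPM with DMSO and 39.2, 34.2 and 35.5 CPM with NUP-17d. NUP-17d culture 1 was the highest and the groups overlapped (log2 fold change 0.048, CI -0.064 to 0.16, adjusted p = 0.529 from edgeR). Without that culture the log2 fold change was -0.012. With totals only it was 0.31 (adjusted p = 6.19e-05 from edgeR), close to the all-gene median of 0.28.

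Ratios between genes within a culture need no scaling between libraries. Cish had 1.90, 1.81 and 1.94 reads per read of Stat5a and Stat5b together with DMSO and 0.935, 0.918 and 0.993 with NUP-17d, a ratio of means of 0.504. For Pim1 the same quotient was 8.95, 8.41 and 8.74 with DMSO and 4.94, 4.66 and 4.92 with NUP-17d, a ratio of means of 0.557. For Socs3 it was 0.142, 0.118 and 0.127 with DMSO and 0.0754, 0.0751 and 0.0798 with NUP-17d, a ratio of means of 0.594. All 3 quotients were lower in every treated culture than in any control. That follows from the levels above, where each of these 3 genes was lower and the Stat5 sum higher without overlap. The quotients were chosen after those levels were seen and add no separate evidence. Cish per Pim1 read was also lower, at 0.196 ± 0.00630 against 0.216 ± 0.00554 (SD, n = 3 cultures each). The FPKM ratio of Epor to Jak2, receptor over kinase per length, was 1.44, 1.44 and 1.61 with DMSO and 1.15, 1.14 and 1.30 with NUP-17d. That of Socs3 to Cish was higher with NUP-17d, at 0.0886 ± 0.00077 against 0.0751 ± 0.00616. Of 10 such sums and ratios in all, 8 gave p = 0.1 in a 2-sided exact permutation test, the smallest p that this design allows (0.125 after Benjamini-Hochberg adjustment). The other 2 are the Stat5b to Stat5a ratio, as FPKM and on the log2 scale, which gave 0.2 in that test. Any quantity whose groups do not overlap gives 0.1 here, and these quantities share genes. The count of 8 therefore adds no evidence beyond the levels of the genes. A ratio shows unequal change of its parts and does not show which part changed.

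**Figure D3:**
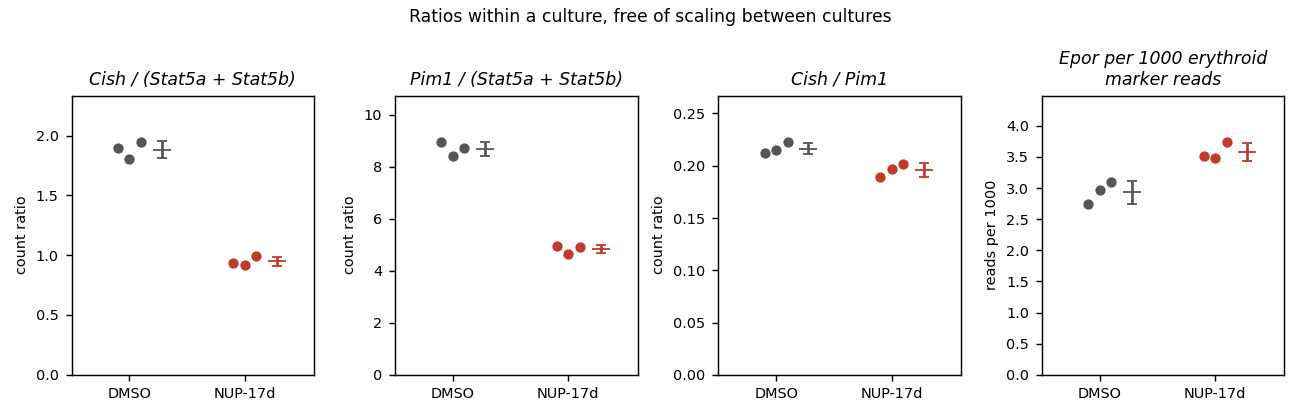
Ratios of expected counts within each culture (vertical axes, starting at 0), with points for cultures and bars for the mean and SD. Cish and Pim1 per read of Stat5a plus Stat5b and Cish per Pim1 read are lower in the 3 NUP-17d cultures than in the 3 DMSO cultures, and Epor per 1000 reads of the 9 erythroid markers is higher.

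Levels of different genes were compared per transcript length, as FPKM. With DMSO the order from the highest was Pim1 (649 ± 14.5), Cish (82.1 ± 0.304), Epor (34.1 ± 1.51), Jak2 (22.8 ± 0.922), Stat5b (16.1 ± 0.673), Stat5a (13.5 ± 0.735), Socs3 (6.16 ± 0.482), Lnpep (6.07 ± 0.352), Socs2 (2.42 ± 0.119) and Socs1 (2.03 ± 0.0800) FPKM (SD, n = 3 cultures). Socs3 and Lnpep were the only neighbors whose ranges overlapped. Pim1 had 320 times the FPKM of Socs1 and stood at percentile 99.5 or higher among the listed genes of each DMSO culture. With NUP-17d the order was the same except that Lnpep (7.57 ± 0.566) stood above Socs3 (5.02 ± 0.151), and no neighbors overlapped. Pim1 was then at 494.5 ± 5.30 and Cish at 56.6 ± 1.75 FPKM, and Pim1 had 201 times the FPKM of Socs1. FPKM carries no correction for composition, so its difference between groups for 1 gene is used only in the limma alternatives.

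**Figure D4:**
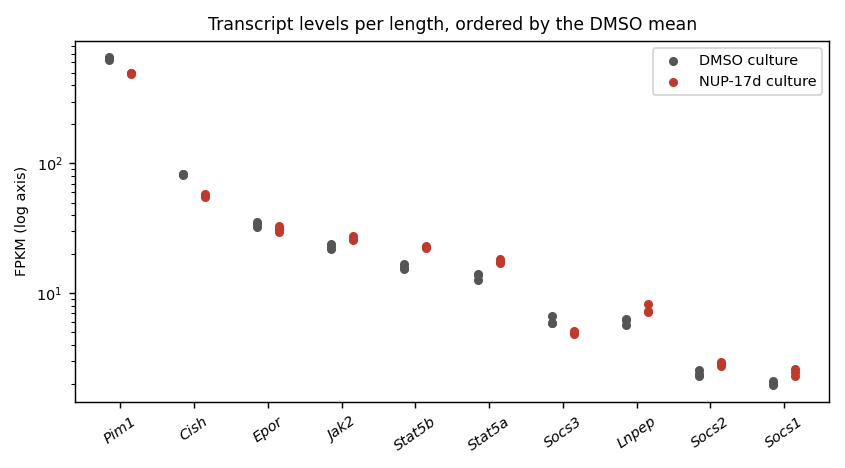
FPKM (vertical log axis) of the 10 genes in each DMSO culture (gray) and each NUP-17d culture (red), ordered by the DMSO mean from Pim1 at 649 to Socs1 at 2.03 FPKM. The order is the same in both groups except for Socs3 and Lnpep.

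Among other genes of the pathway, more rose than fell. Earlier results of these data were known when a list of 57 such genes was written from recall. It held receptors, JAK, STAT, SOCS and PIAS families, phosphatases, adaptors, Lyn, Btk and phospholipases, and the elongin and cullin partners of SOCS proteins. Of its genes, 56 could be tested. Of these, 16 rose, 6 fell and 34 did not pass, with a median log2 fold change of 0.051 against 0.014 for all tested genes. Over all tested genes the shares were 16.4% and 18.9%. None of Jak1, Jak3 and Tyk2, of Stat2, Stat3, Stat4 and Stat6, or of Socs4, Socs5, Socs6 and Socs7 passed the test. At an unadjusted p under 0.05, edgeR called 3 of these 11 genes (Stat4, Socs4 and Socs7) and DESeq2 called 0. The share of all tested genes at that unadjusted threshold is not given here, so the 3 cannot be weighed against it. With totals only, 10 of the 11 were higher, beside 68.7% of all tested genes that rose. Of the 56 genes, 48 rose and 0 fell with totals only in edgeR, 0 also at an unadjusted p under 0.05.

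Receptors were the largest group among the genes that rose. Of 12 receptors tested, 7 rose and 2 fell, beside 16.4% and 18.9% of all tested genes. Csf2rb, the chain shared by the receptors for IL-3, IL-5 and GM-CSF, rose from 319 ± 4.44 to 383 ± 6.80 CPM (adjusted p = 5.60e-07 from edgeR, log2 fold change 0.26). Its close copy Csf2rb2 rose from 248 ± 3.13 to 287 ± 5.09 CPM (0.21). Reads may be shared between those copies, so their separate values are uncertain. Il6st, the gp130 chain of the IL-6 receptor family, fell by 0.25 on the log2 scale and was at 0.022 with totals only. Among the intracellular genes, the phospholipase gene Plcg2 rose (0.22), the adaptor gene Stam fell by 0.32, and Eloc, which encodes an elongin that binds the SOCS box, fell by 0.27. Stam, Eloc and Il6st did not pass with totals only.

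Known STAT5 targets outside the 10 genes fell more often than they rose. A list of 32 genes was written from recall with earlier results of these data known, so its counts are a description only. Of its genes, 20 fell, 3 rose and 9 did not pass. The median log2 fold change of the list was -0.23, against 0.014 for all tested genes. Over all tested genes 18.9% fell and 16.4% rose. No gene of the list was sorted by whether STAT5 raises or lowers it, so a fall is not a measure of STAT5 activity. The list shares Tfrc, Klf1 and Gata1 with the erythroid markers, and without these 3 genes 17 of 29 fell and 3 rose. With totals only, 9 fell and 13 rose, beside 5.34% and 68.7% of all tested genes.

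Bcl2l1, which encodes the survival protein BCL-XL, fell from 867 ± 32.5 to 555 ± 20.7 CPM (SD, n = 3 cultures each; log2 fold change -0.64, SE 0.037, adjusted p = 1.83e-13 from edgeR). Erfe, the erythroid hormone erythroferrone that lowers hepcidin, fell by the same 0.64 on the log2 scale, from 72.8 ± 1.75 to 46.6 ± 1.87 CPM. Tfrc, which brings iron into erythroblasts, fell from 2209 ± 46.9 to 1534 ± 48.2 CPM (-0.53). Gadd45a, a gene of growth arrest and stress, fell from 1449 ± 33.3 to 690.3 ± 24.2 CPM (-1.07), and the immediate early gene Egr1 from 240.4 ± 14.9 to 136 ± 1.95 CPM (-0.83). These 2 genes also answer to many signals other than STAT5. Gata1 fell by 0.33 on the log2 scale but did not pass with totals only.

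Plek2, the target of the compound and itself a known target of STAT5, fell from 52.6 ± 2.85 to 39.9 ± 1.32 CPM (SD, n = 3 cultures each; log2 fold change -0.40, adjusted p = 1.78e-07 from edgeR). Pim2, a relative of Pim1, fell by 0.53 on the log2 scale, whereas Pim3 was at 0.20 and did not pass. The 3 targets that rose were Igf1 (0.44), Il2ra (0.43) and Serpina3g (0.27). Myc (0.049), Ccnd3 (-0.040) and Id1 (-0.12) were among the 9 that did not pass.

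**Figure D5:**
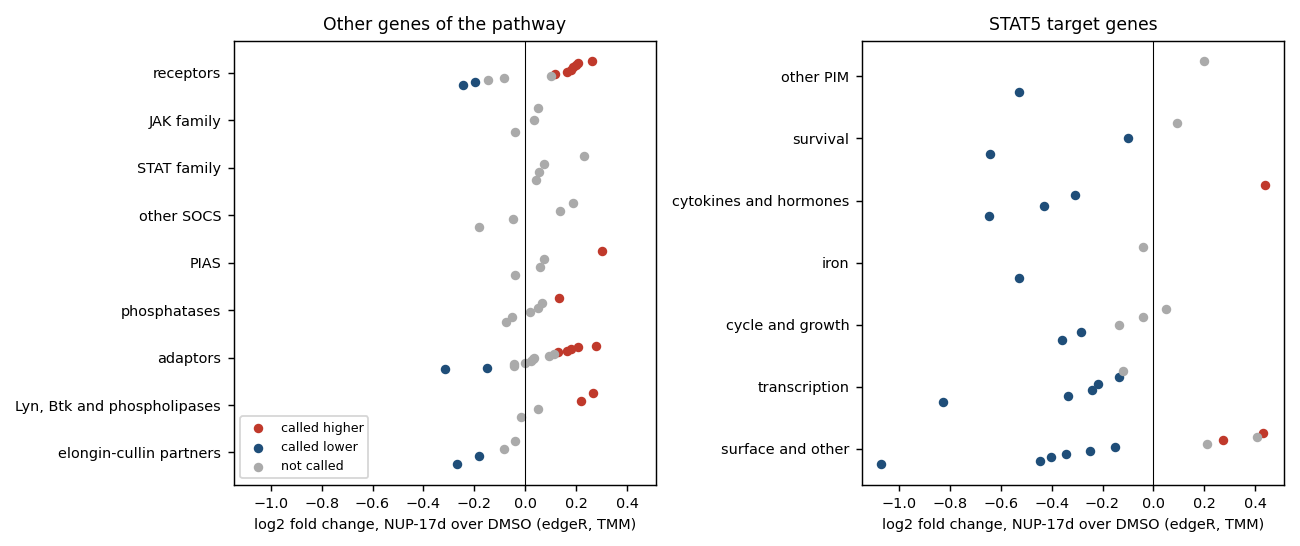
Log2 fold change of NUP-17d over DMSO (horizontal axes, edgeR with TMM scaling) of the 56 tested genes of the pathway list (left) and the 32 STAT5 target genes (right), grouped by role on the vertical axes, with 1 point per gene colored by its call. In the pathway list 16 genes rose and 6 fell, and in the target list 3 rose and 20 fell.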

How the data were processed

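Each of the 6 cultures had a deposited table with an expected count per gene (the authors' estimated reads, not normalized) and an FPKM value (the count per transcript length and library total, by the authors). The submitters' processing notes name genome build mm10, which is GRCm38. The aligner and counting program are not given in the sources used here. Genes absent from a table were taken as 0. Expected counts were rounded and tested with edgeR 4.0.16 in R 4.3.3 (filterByExpr, TMM, quasi-likelihood test, Benjamini-Hochberg adjustment over 12306 genes, threshold 0.05). Alternatives were totals-only and RLE scaling, DESeq2 1.42.0, no filter, hemoglobin genes removed, limma 3.58.1 on log2 FPKM with a pseudocount of 1 or 0.1 (mean FPKM of 1 or more), the culture number as a block, and each culture left out. The SE of a log2 fold change is its size divided by the root of edgeR's F statistic. A simplified simulation gave every gene the same relative spread and the groups no difference in composition. In it, edgeR recovered 94 of 100 genes changed by 1.5-fold and 100 of 100 changed by 2-fold, with 15 false calls among 12208 genes. These libraries do differ in composition, so such rates may not hold for them. A few genes of the marker and pathway lists are not reported here and are left out of their counts and sums. The genes and lists were chosen with earlier results of these data known. The list genes given with values are the called genes with the 6 lowest p-values per list, no overlap between groups and 100 or more reads on average, and Plek2. Pim2, Pim3, Igf1, Il2ra, Serpina3g, Myc, Ccnd3, Id1 and the marker genes were chosen after their values were seen, as were the ratios within a culture other than that of Stat5b to Stat5a. Promoter sequences are from RefSeq (GRCm38.p6).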

Additional observations from a re-analysis of the deposited data

How the results depend on the processing

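The scaling of the libraries moved the results most. With totals only, limma on log2(FPKM + 1) and limma on log2(FPKM + 0.1), 5, 6 and 6 of the 10 genes rose. The median log2 fold change of the 10 genes was 0.23, 0.19 and 0.23, below the 0.28, 0.24 and 0.27 of all tested genes. With these 3 settings, 48, 49 and 49 of the other pathway genes rose and 0 fell in each (0 also at an unadjusted p under 0.05), while 13 STAT5 targets rose and 9 fell in each. Over all tested genes (12306 with totals only and 10543 with each limma fit), 8458, 7895 and 7880 rose (68.7%, 74.9% and 74.7%). In the same settings 657, 599 and 600 fell (5.34%, 5.68% and 5.69%), and DESeq2 had 1276 higher. Jak2 turned to 0.21, 0.20 and 0.21, Socs1 to 0.26, 0.19 and 0.26, Socs2 to 0.26, 0.18 and 0.24, and Il6st to 0.022, 0.023 and 0.025. With both limma settings Eloc turned to 0.0090 and 0.0092. These settings carry no correction for composition, which shifts all genes together. Without a filter Socs1 was at 0.00071.

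In the fit with a block for culture numbers, 2 of the 10 genes rose, and the added one was Stat5a (log2 fold change 0.12, adjusted p = 0.0361 from edgeR). Deviations of same-numbered cultures correlated at 0.0564, -0.00474 and -0.00287, and those of differently numbered cultures at -0.0670 to 0.0704. With 3 cultures per group, these values cannot show whether a shared number marks a pair. The block changed the call of no other of the 10 genes.

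Leaving out each culture in turn, 1 to 2 of the 10 genes rose and 4 fell in each fit, and the median log2 fold change ranged from -0.068 to -0.027. Log2 fold changes near 0 changed sign in these fits, ranging from -0.051 to 0.037 for Socs1, from -0.058 to 0.033 for Socs2 and from -0.012 to 0.091 for Lnpep. In the same fits, the summed Stat5a and Stat5b difference ranged from 16.8 to 21.1 CPM and the log2 ratio of Stat5b to Stat5a from 0.064 to 0.15. Cish, Pim1, Socs3, Epor and Stat5b kept their direction and passed in all 14 alternatives. Socs1 and Socs2, with the fewest reads, are measured least precisely.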
